A study of Mus musculus with 2 samples.

Results

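Scavenger receptors are cell surface proteins that bind modified lipoproteins, haemoglobin complexes, mannosylated glycoproteins, matrix fragments and microbial polyanions. A set of 10 genes of this kind was examined in an experiment, labelled as one on mouse macrophages, with an inhibitor of Hedgehog signalling. The members were the rows of the deposited gene table named Cd163, Mrc1, Msr1, Marco, Stab1, Stab2, Cd36, Scarb1, Scara5 and Olr1, which are 10 of 20003 genes, and all 10 were found. The rule takes them by name and uses no measured value, though the set was proposed with earlier results of these data known.

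RNA was sequenced from 2 libraries, 1 per group. The first, labelled M2+GANT61, came from cells given 10 µM GANT61, an inhibitor of GLI proteins, the transcription factors that Hedgehog signalling activates. The second, labelled M2+DMSO, had the vehicle DMSO alone. Both were labelled RAW 264.7, a mouse macrophage line. Per the labels, both had M-CSF at 20 ng/mL overnight and then IL-4 at 10 ng/mL, with GANT61 or DMSO added 4 h before IL-4, so the DMSO cells were also given IL-4. For exposure to IL-4 the labels state 15 min in one place and 24 h in another. With 1 library per group there is no replicate check. The conditions were not tested against each other, and no difference below can be set against a spread between replicates. Intervals are exact 95% Clopper-Pearson binomial intervals on read counts that cover counting error only. They may be too narrow even for that, because sequenced reads that carry no molecular identifier may be copies of 1 molecule.

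The libraries held 57705874 reads (GANT61) and 61632784 reads (DMSO). The labelled cell type was checked against marker lists. All 20 macrophage identity genes reached 10 CPM (counts scaled to library size) in both libraries. However, all 12 fibroblast, all 12 epithelial and all 12 endothelial markers also did so, as did 11 of 16 adipocyte markers, and no marker of these lists was at 0 in either library. The summed level of the adipocyte list was 1201 CPM in the GANT61 library and 7344 CPM in the DMSO library, and that of the fibroblast list was 9768 and 9628 CPM. The data therefore go against a pure culture of 1 macrophage line, and the libraries are called by their labels. In such bulk RNA, fewer cells of a type and less RNA per cell cannot be told apart.

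In macrophages, CD163 takes up haemoglobin, and the mannose receptor, encoded by Mrc1, takes up glycoproteins with terminal mannose and collagen fragments. Both are widely used as surface markers of alternative (M2) activation, the name that the labels give to these IL-4 treated cells. Per the labels both libraries had IL-4, so its effect on either gene cannot be read here. Which cells gave the Cd163 and Mrc1 transcripts was not tested. Members of the set are also found on cells other than macrophages. CD36 is abundant on adipocytes and capillary endothelium, STAB2 on sinusoidal endothelium, SCARB1 on steroid-forming and liver cells, and SCARA5 on stromal and epithelial cells.

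The scavenger receptors did not share a direction. By a fixed rule of size, 6 members were higher in the GANT61 library (Cd163, Olr1, Mrc1, Stab1, Msr1 and Stab2) and 1 was lower (Cd36). Scarb1 and Scara5 met neither side of the rule, and Marco lay below the floor on level. The rule asked for a ratio of GANT61 over DMSO of at least 1.5 or at most its inverse, with a counting interval that left out 1 and an average level, over the libraries, of 1 CPM or more. Over the whole table it was met by 24.4% of 13939 genes, with 14.1% of the genes higher and 10.3% lower. Counts for the gene lists below are to be set against these shares. The median log2 ratio of the 9 members above the floor was 1.69, against -0.01 over all genes considered. Macrophage identity genes, in a list without scavenger receptors, were also higher in 16 of 20 cases and lower in 1, with a median of 1.07. Their part in the receptor result was not tested.

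**Figure D1:**
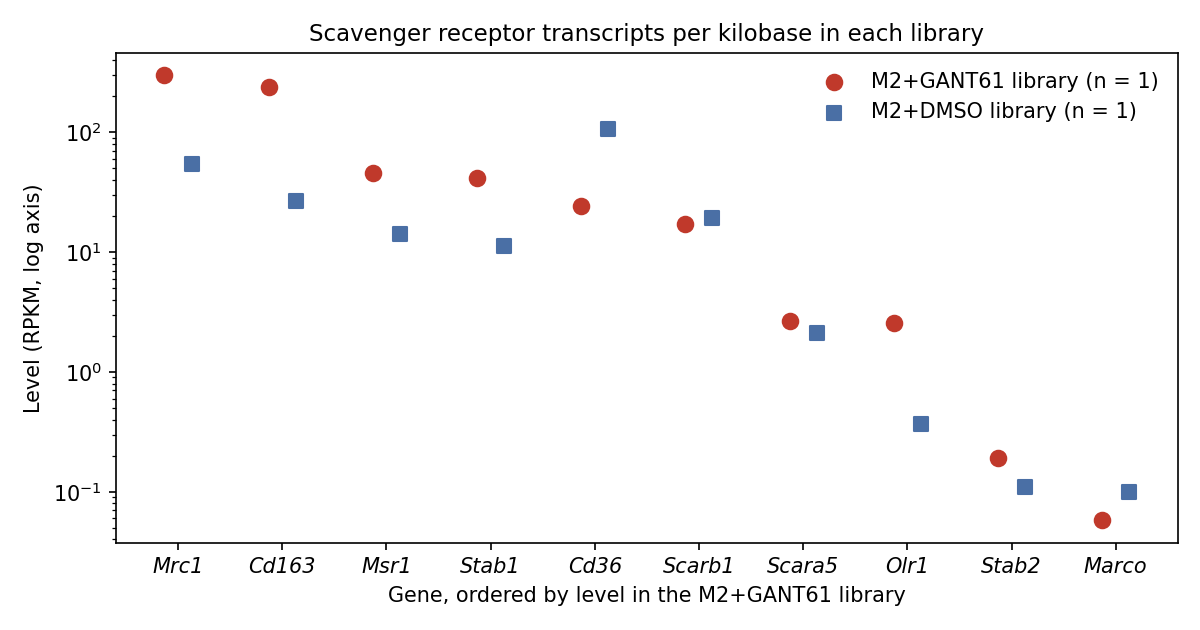
Level of each scavenger receptor gene in RPKM on a log axis, with the M2+GANT61 library as circles and the M2+DMSO library as squares, 1 library each and therefore no error bar. Mrc1 and Cd163 stand at 299 and 239 RPKM in the GANT61 library, while Cd36, at 107 RPKM, is the highest member in the DMSO library.

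Compared per length, as RPKM values (reads scaled to gene model length and to library total), the order of the receptors differed between the libraries. In the GANT61 library Mrc1 was the most abundant member and Cd163 came next, followed by Msr1, Stab1, Cd36, Scarb1, Scara5, Olr1, Stab2 and Marco. In the DMSO library Cd36 came first, followed by Mrc1, Cd163, Scarb1, Msr1, Stab1, Scara5, Olr1, Stab2 and Marco. Of the 10 members, 6 were at 10 RPKM or more in both libraries, and the lowest 4 places were held by the same genes in the same order. Scara5 and Olr1, at 2.64 and 2.54 RPKM in the GANT61 library, were nearly equal there, and without replicates neighbouring places cannot be told apart.

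The members' RPKM summed to 671.5 in the GANT61 library and 234.8 in the DMSO library. Mrc1 and Cd163 made up 44.5% and 35.6% of the GANT61 sum, and 23.0% and 11.3% of the DMSO sum. Cd36 made up 3.58% of the GANT61 sum and 45.5% of the DMSO sum. The receptor transcripts of the GANT61 library were thus mostly of the haemoglobin and mannose receptors, and the largest single part in the DMSO library was a fatty acid receptor. Within the GANT61 library the RPKM of Cd163 was 9.96 times that of Cd36, while within the DMSO library the RPKM of Cd36 was 4.02 times that of Cd163.

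**Figure D2:**
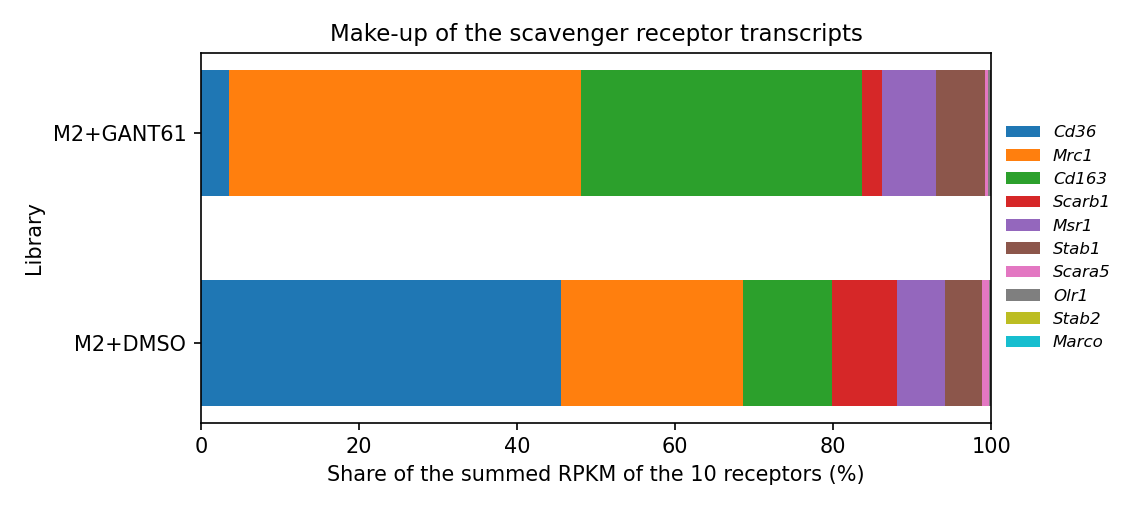
Share of each gene in the summed RPKM of the 10 receptors, as stacked bars from 0 to 100%, with the M2+GANT61 library above the M2+DMSO library, 1 library each. Cd36 takes 3.58% of the GANT61 bar and 45.5% of the DMSO bar, and Mrc1 and Cd163 fill most of the GANT61 bar.

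The stretches just before the transcription starts of the 3 members with the largest ratios and of the 1 lower member are shown because these genes differed most, and in opposite directions, between the libraries. Promoter sequence came from RefSeq for GRCm38.p6 and was available here for 7 of the 10 members. Each line gives the 250 bases before the RefSeq start, 5′ to 3′ on the gene's own strand. Capitals mark matches, on either strand, to 6 motifs. These were GACCACCCA for GLI factors, TTCNNNNGAA for STAT factors, GAGGAAG for PU.1, TGANTCA for AP-1, TATAAA for the TATA box and TGCTGA for the core of a MAF element.
Cd163 (chr6:124304401-124304650, plus strand): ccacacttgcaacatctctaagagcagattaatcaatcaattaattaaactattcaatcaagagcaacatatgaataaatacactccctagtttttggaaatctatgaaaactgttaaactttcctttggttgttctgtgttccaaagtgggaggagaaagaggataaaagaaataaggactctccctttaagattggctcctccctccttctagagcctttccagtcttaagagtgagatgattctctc
Olr1 (chr6:129507166-129507415, minus strand): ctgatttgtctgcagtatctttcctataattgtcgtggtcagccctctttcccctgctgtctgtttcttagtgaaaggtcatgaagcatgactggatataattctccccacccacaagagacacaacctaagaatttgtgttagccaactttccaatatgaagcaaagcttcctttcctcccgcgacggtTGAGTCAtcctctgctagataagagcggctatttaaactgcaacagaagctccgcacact
Mrc1 (chr2:14229164-14229413, plus strand): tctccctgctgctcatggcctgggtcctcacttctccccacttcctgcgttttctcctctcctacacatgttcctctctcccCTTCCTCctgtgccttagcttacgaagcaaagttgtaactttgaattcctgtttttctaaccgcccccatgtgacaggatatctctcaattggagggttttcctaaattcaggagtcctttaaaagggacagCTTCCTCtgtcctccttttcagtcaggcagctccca
Cd36 (chr5:17835897-17836146, minus strand): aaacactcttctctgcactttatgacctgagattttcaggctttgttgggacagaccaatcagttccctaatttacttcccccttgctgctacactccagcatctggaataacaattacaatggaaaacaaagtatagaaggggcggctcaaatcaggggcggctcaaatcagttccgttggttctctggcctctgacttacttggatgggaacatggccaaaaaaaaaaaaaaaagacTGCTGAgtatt

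The Cd163 stretch held no match to any of the 6 motifs. The Mrc1 stretch held 2 PU.1 matches, both on the opposite strand, at 168 to 162 and 36 to 30 bases before the start. Olr1 held 1 AP-1 match, TGAGTCA, at 60 to 54 bases before the start, and Cd36 held 1 MAF core at 11 to 6 bases before it. Among the members not printed, Marco held 1 PU.1 match, Stab1 held 1 MAF core and Stab2 held none. None of the 7 members with promoter sequence held the GLI or the STAT motif. Msr1, Scarb1 and Scara5 had no sequence here and were not searched. Of 32851 mouse promoters cut to the same window, 0.225% held the GLI motif, 5.85% the STAT motif, 10.6% PU.1, 6.75% AP-1, 12.4% the TATA box and 16.1% the MAF core. These are matches of letters in 1 window per gene and not binding sites. Cd36 has 6 annotated transcript starts, and the window shown lies inside its annotated span. Positions are counted from the RefSeq start, which can differ from the loci given below. The Mrc1 locus starts at 14229392, inside its window, so the last bases shown lie within that locus. The Stab2 window likewise overlaps its locus.

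The SRCR receptor Cd163 had the largest ratio of the members. It had 77257 reads in the GANT61 library and 9429 in the DMSO library, or 1359.5 and 151 CPM after scaling. In RPKM its level was 239 in the GANT61 library and 26.6 in the DMSO library. The ratio was 9.02 (8.83 to 9.22), a log2 ratio of 3.17, which placed it 29th from the highest among 13939 genes. Cd163 lies on chromosome 6 at 124304656 to 124330527 (mm10, plus strand). Its ratio lay above that of all 20 macrophage identity genes, which ran from 0.508 to 3.21, and its log2 ratio exceeded their median by 2.10. The relative Cd163l1, also of the SRCR class, had 85 reads in the GANT61 library and 18 in the DMSO library, a ratio of 5.09 (3.10 to 9.19), with a mean level below 1 CPM.

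The mannose receptor Mrc1 (chromosome 2, 14229392 to 14332057, plus strand) was the most abundant member in the GANT61 library. It had 114261 reads there and 22708 in the DMSO library, or 2011 and 363 CPM. In RPKM it stood at 299 in the GANT61 library and 54.1 in the DMSO library, so it was abundant in both. The ratio was 5.54 (5.46 to 5.62), the 113th from the highest. The other 3 genes of the mannose receptor family had smaller ratios. Ly75, an endocytic receptor of dendritic cells, met the rule at 1.71 (1.61 to 1.82). Mrc2, a collagen receptor of fibroblasts, and Pla2r1, a phospholipase A2 receptor, met neither side, at 1.48 (1.41 to 1.55) and 1.37 (1.19 to 1.58). Within this family the ratio of Mrc1 was therefore the largest. An intron-hosted microRNA gene, Mir511, overlaps Mrc1 on the same strand and was not analysed here.

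The class A receptors Msr1, Marco and Scara5, which bind polyanionic ligands through a collagen-like stalk and in part an SRCR domain, differed in level and in ratio. Msr1, a receptor for modified low density lipoprotein, had 13069 reads in the GANT61 library and 4476 in the DMSO library, or 45.4 and 14.2 RPKM. Its ratio was 3.22 (3.11 to 3.33). Scara5, a ferritin receptor, had 1061 reads in the GANT61 library and 936 in the DMSO library, or 2.64 and 2.12 RPKM. Its ratio was 1.25 (1.14 to 1.36), short of the rule. Marco, a bacterial receptor of some resident macrophages, had 8 reads in the GANT61 library and 15 in the DMSO library. Its ratio of 0.604 had an interval from 0.216 to 1.48 that included 1, so no difference was detectable at this depth.

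Among Msr1, Marco and Scara5, the most abundant transcript in both libraries was thus that of Msr1. Its RPKM was 17.2 times that of Scara5 in the GANT61 library and 6.69 times in the DMSO library. Of the further class A genes, Colec12, a collectin of endothelium and stroma, had a ratio of 1.80 (1.74 to 1.86) and met the rule. Scara3 did not, at 0.860 (0.831 to 0.890). In RPKM, Colec12 stood at 39.6 in the GANT61 library and 22.1 in the DMSO library, and Scara3 at 24.1 and 28.2. In the DMSO library both were thus above Msr1, at 14.2 RPKM. Msr1 lies on chromosome 8 at 39581685 to 39642673, Scara5 on chromosome 14 at 65666403 to 65764826 and Marco on chromosome 1 at 120474538 to 120505024 (mm10).

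The stabilins, large receptors for hyaluronan and matrix fragments, were both higher in the GANT61 library, but at very unequal levels. Stab1, found on alternatively activated macrophages and sinusoidal endothelium, had 23999 reads in the GANT61 library and 7058 in the DMSO library, or 41.7 and 11.2 RPKM. Its ratio was 3.74 (3.65 to 3.85). Stab2 had 113 reads in the GANT61 library and 71 in the DMSO library, or 0.193 and 0.111 RPKM, a ratio of 1.75 (1.29 to 2.39). The Stab2 interval is wide and reaches below the 1.5 threshold. Per length, Stab1 was 216 times as abundant as Stab2 in the GANT61 library and 101 times in the DMSO library.

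Of 12 general endothelial markers 1 was higher and 3 were lower. Their median log2 ratio was -0.42, with summed levels of 745.3 CPM in the GANT61 library and 812 CPM in the DMSO library. In the list for sinusoidal and lymphatic endothelium, 4 of 11 were higher and 2 lower. Its median was 0.26, with summed levels of 1054 CPM in the GANT61 library and 379.7 CPM in the DMSO library. Most of that sum came from Fcgr2b, at 879 and 248 CPM, and the other 10 genes summed to 176 and 132 CPM. With a mean of at least 10 CPM the list median was -0.07, a change of sign. Lyve1, a hyaluronan receptor of lymphatic endothelium and some macrophages, was lower at 0.601 (0.566 to 0.638), opposite to the stabilins. Fcgr2b, an Fc receptor also found on macrophages and B cells, was higher at 3.54 (3.48 to 3.61). The part of endothelial cells in the stabilin values was not tested. Nt5dc2, on the opposite strand, overlaps Stab1 (chromosome 14, 31139013 to 31168641, minus strand). It had 1232 reads in the GANT61 library and 976 in the DMSO library, and the strand setting of the counting is not given in the sources used here.

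The class B receptors Cd36 and Scarb1, which bind lipoproteins and fatty acids, differed from each other. Cd36 (chromosome 5, 17781690 to 17888801, minus strand), a fatty acid and oxidised lipoprotein receptor, was the lower member. It had 6784 reads in the GANT61 library and 33122 in the DMSO library, or 24.0 and 107 RPKM. Its ratio was 0.226 (0.220 to 0.232), which is 4.43-fold lower in the GANT61 library. Scarb1, the high density lipoprotein receptor, had 3818 reads in the GANT61 library and 4683 in the DMSO library, or 17.1 and 19.1 RPKM. Its ratio of 0.898 (0.860 to 0.937) excluded 1 by counting error but stayed within the 1.5 threshold.

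Adipocyte markers moved with Cd36. All 16 genes of the adipocyte list were lower in the GANT61 library, with a median log2 ratio of -2.64 and ratios from 0.101 to 0.240, and none was at 0 in either library. Cd36 lay within that range, above 15 of the 16 and below all 20 macrophage identity genes. Pparg, a nuclear receptor that activates Cd36 in adipocytes and macrophages, was also lower, at 9.48 CPM in the GANT61 library and 39.7 CPM in the DMSO library, a ratio of 0.239 (0.217 to 0.262). The part of adipocyte RNA in the Cd36 value was not tested. Scarb2, the lysosomal class B member, was higher at 1.60 (1.56 to 1.64), so the class held a lower gene, a higher gene and one short of the rule.

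Olr1, the lectin-like receptor LOX-1 for oxidised low density lipoprotein, had the second largest ratio at a low level. It had 651 reads in the GANT61 library and 103 in the DMSO library, or 2.54 and 0.366 RPKM. The ratio was 6.93 (5.65 to 8.65). Its level was below that of Msr1 by 17.9 times per length in the GANT61 library and by 38.8 times in the DMSO library. Olr1 lies on chromosome 6 at 129485244 to 129507165 (mm10, minus strand). Among the receptors for modified lipoproteins, Olr1 and Msr1 were therefore higher and Cd36 lower in the GANT61 library.

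**Figure D3:**
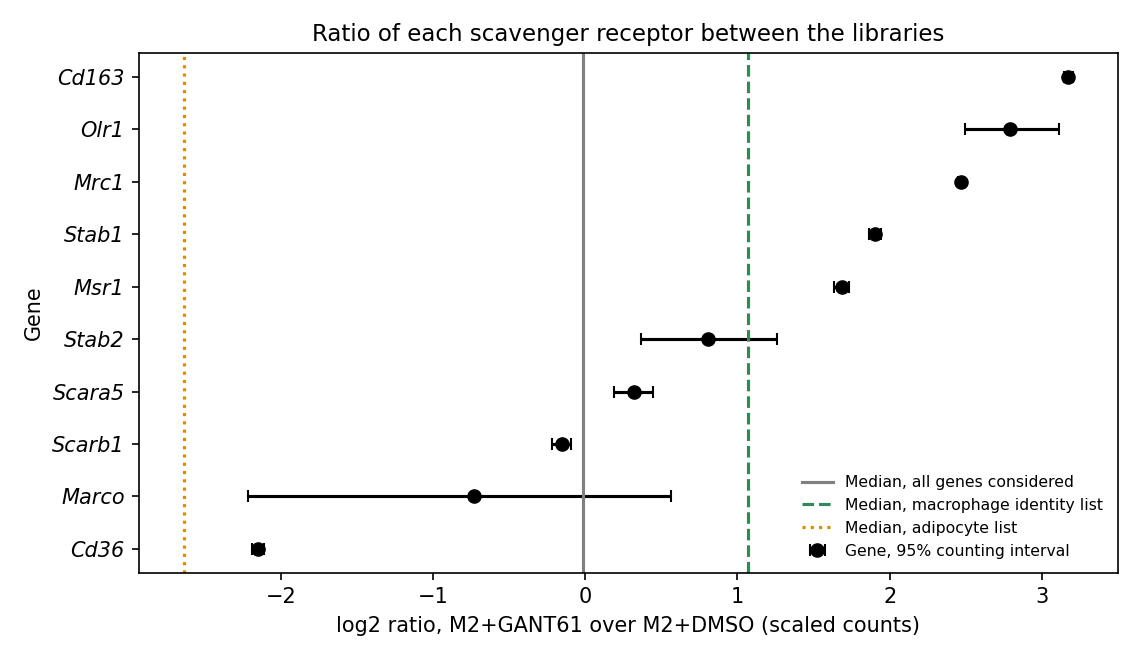
Ratio of the M2+GANT61 over the M2+DMSO library on a log2 axis for each receptor, with 95% counting intervals as bars, 1 library each. Vertical lines give the medians of all genes considered (-0.01), of the macrophage identity list (1.07) and of the adipocyte list (-2.64), and 5 members lie to the right of the macrophage line with intervals that do not reach it.

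Set against macrophage identity genes, the members spread over a wide range. Cd163, Olr1, Mrc1, Stab1 and Msr1 had ratios above all 20 of these genes, with Msr1 at 3.22 (3.11 to 3.33) not separable by counting error from the top one, Itgam, at 3.21 (3.12 to 3.31). Their log2 ratios exceeded the macrophage median by 2.10, 1.72, 1.40, 0.83 and 0.61. The log2 difference from that median was -0.27 for Stab2, whose ratio lay above 6 of the 20 genes and whose interval held the median. It was -0.75 for Scara5, -1.23 for Scarb1 and -3.22 for Cd36. With the ratios divided by the macrophage median ratio of 2.10, a scaling chosen after the data were seen, 5 members were higher (all of the 6 but Stab2) and 3 were lower, namely Cd36, Scarb1 and Scara5. The list for tissue-resident and perivascular macrophages had 12 of 18 genes higher and 1 lower. Its median was 0.92, and its top gene was the chemokine Ccl8 at 6.48 (6.41 to 6.56).

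Beyond the members, 18 other scavenger receptor genes, of these and further classes, were listed, and 16 of them reached the floor. Of these 8 were higher, 1 was lower and 7 met neither side, and the median log2 ratio was 0.59. The shares over all genes considered were 14.1% higher and 10.3% lower. The lists overlap, and Lrp1 and Megf10 count again in lists below. Cd68, a lysosomal glycoprotein of macrophages, had the largest ratio among those with at least 5 CPM, at 288 CPM in the GANT61 library and 85.6 CPM in the DMSO library, a ratio of 3.36 (3.26 to 3.47). Cxcl16, a membrane-bound chemokine that also binds oxidised lipoprotein, was higher at 2.05 (2.0003 to 2.10), and Megf10, an engulfment receptor, at 2.11 (1.80 to 2.48). Lrp1, a large endocytic receptor that takes up haem-haemopexin complexes, was higher at 1.58 (1.55 to 1.61). Dmbt1, a secreted epithelial SRCR protein, had the largest ratio in the list at a low level, with 283 reads in the GANT61 library and 40 in the DMSO library, a ratio of 7.71 (5.58 to 11.1).

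Cd5l, a secreted SRCR protein of macrophages, was the lower gene of that list. It had 75 reads in the GANT61 library and 135 in the DMSO library, a ratio of 0.614 (0.455 to 0.817). Cd5, a lymphocyte SRCR receptor, was higher at 1.53 (1.35 to 1.73), close to the threshold. Cd44, a hyaluronan receptor, was just under it at 1.48 (1.449 to 1.5025). Outside class A, the large ratios of SRCR genes were thus those of Cd163, Cd163l1 and Dmbt1, while Cd5, Cd6 at 1.29 (1.17 to 1.43) and Ssc5d at 1.11 (1.0005 to 1.23) had small ones and Cd5l lay in the other direction.

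Genes listed for haemoglobin and haem clearance did not follow Cd163 as a group. Of 11 such genes, 3 were higher, 1 was lower and 7 met neither side, and the median log2 ratio was 0.19. Over all genes considered, 14.1% were higher and 10.3% lower. Hmox1, the enzyme that opens the haem ring, was higher at 215 CPM in the GANT61 library and 64.3 CPM in the DMSO library, a ratio of 3.35 (3.23 to 3.47). Adam17, a protease that sheds cell surface proteins, was higher at 1.74 (1.69 to 1.80). Hp (haptoglobin), which binds haemoglobin and which adipocytes also make, was lower, with a ratio of 0.257 (0.252 to 0.262). It stood at 204 CPM in the GANT61 library and 793 CPM in the DMSO library. Cd163 and Hp thus differed in opposite directions. The part of adipocyte RNA in the Hp value was not tested. Slc40a1, the iron exporter ferroportin, met neither side at 0.900 (0.803 to 1.01), nor did the ferritin chains Fth1 at 1.14 (1.13 to 1.15) and Ftl1 at 1.47 (1.46 to 1.48).

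Among 13 genes of lipoprotein and sterol handling, 7 met the rule upwards and 0 downwards, and the median was 0.62. Abca1, a cholesterol exporter, was higher at 3.13 (3.06 to 3.20), and Npc1, which moves cholesterol out of lysosomes, at 2.80 (2.68 to 2.93). Abcg1, a further exporter, was at 2.37 (2.27 to 2.47) and Soat1, which esterifies cholesterol, at 1.73 (1.68 to 1.79). Of the receptors for phosphatidylserine and apoptotic cells, 6 of 13 above the floor met it upwards and 0 downwards, and the median was 0.52. Both lists stand beside 14.1% upwards and 10.3% downwards over all genes considered. Cd300lf, a myeloid lipid-binding receptor, had the largest ratio there, 3.70 (3.47 to 3.95), and Mertk, a receptor kinase for apoptotic cells, was at 1.71 (1.58 to 1.86).

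Transcription factors known to act at scavenger receptor genes were mixed. Of 15 factors 5 were higher, 2 were lower and 8 met neither side, and the median was 0.09. Among all genes considered, 14.1% were higher and 10.3% lower. The macrophage factors Maf and Spi1 (PU.1) were higher, at 2.25 (2.16 to 2.34) and 1.87 (1.80 to 1.94), and Spi1 is also in the macrophage identity list. Irf4, an IL-4 induced factor, was higher at 2.86 (2.64 to 3.09) and Klf4 at 1.61 (1.54 to 1.70). Pparg and Cebpa, both also factors of adipocytes, were lower, with Cebpa at 0.553 (0.536 to 0.570). Stat6, which carries the IL-4 signal, met neither side at 1.25 (1.21 to 1.29).

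**Figure D4:**
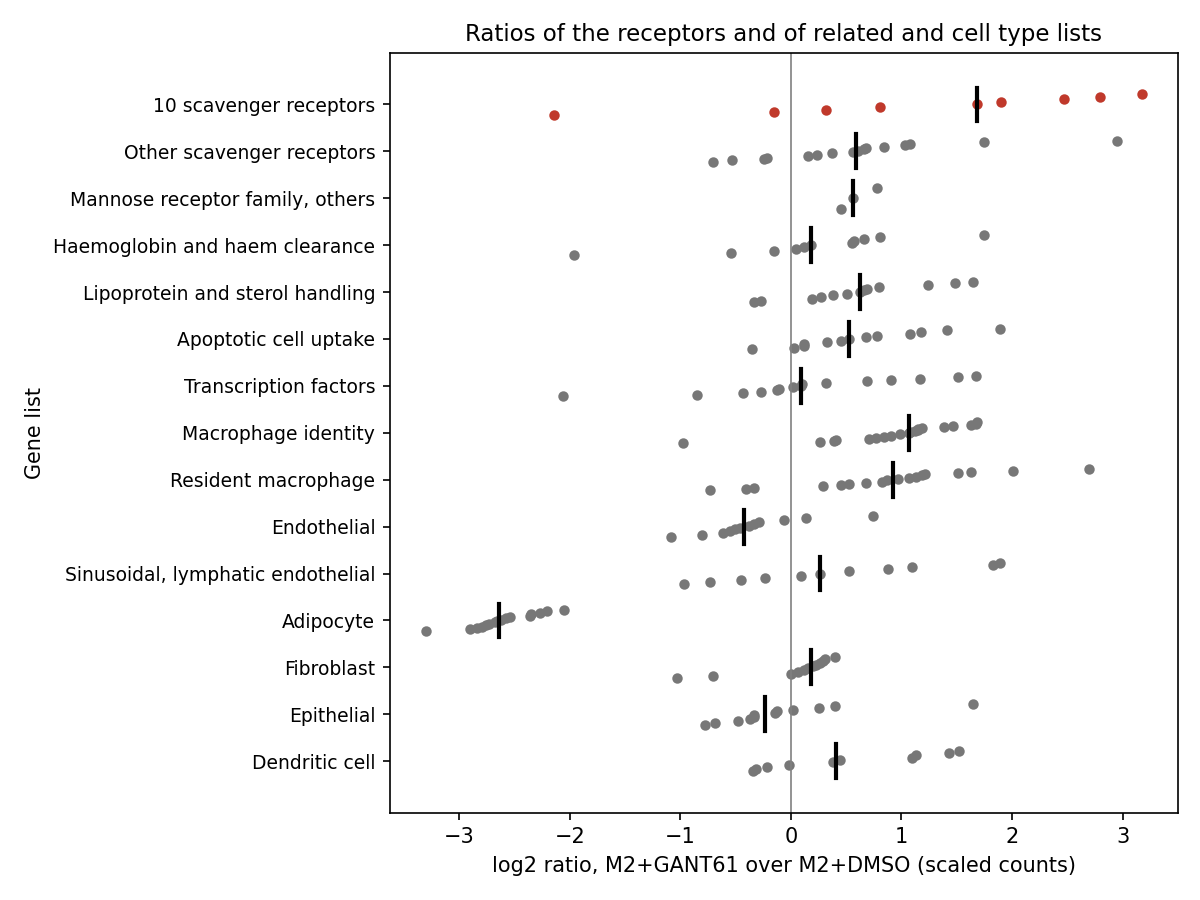
Ratio of the M2+GANT61 over the M2+DMSO library on a log2 axis for each gene averaging 1 CPM or more, as points in 1 row per list with the median as a black bar, 1 library each. The receptors spread from -2.15 to 3.17, wider than the macrophage identity row (-0.98 to 1.68), and the adipocyte row lies wholly below -2.

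The genes nearest in ratio to the 2 ends of the set were found among 4710 genes averaging 50 CPM or more, by the distance in log2 ratio over these 2 libraries. Nearest to Cd163 were Slfn4 at 8.95 (8.34 to 9.63), Il1a at 9.32 (8.76 to 9.94) and Lipg at 7.28 (6.76 to 7.85). Among those nearest to Cd36 were Acsl1 at 0.226 (0.220 to 0.233) and Lpl at 0.222 (0.217 to 0.226). A likeness over 2 libraries is a likeness of 1 ratio only.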

How the data were processed

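Messenger RNA from 2 libraries, 1 per group, was sequenced on an Illumina instrument, per the series' design text. The authors deposited raw estimated counts for each gene and, separately, RPKM values. The submitters' processing notes list cutadapt, STAR, HISAT2, SAMtools, Partek, mm10 and hg19. What each was used for, the read counter and the annotation are not given in the sources used here. Of the deposited counts, 29.5% (GANT61) and 29.8% (DMSO) were not whole numbers, and all were rounded to whole numbers first. Columns were tied to libraries by the treatment in their names alone, since the numbers in those names differ from the numbers in the sample titles. The direction of every ratio rests on this.

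Counts were scaled by TMM in edgeR 4.0.16 (R 4.3.3). Ratios of GANT61 over DMSO used a prior count of 0.5 per library, and intervals came from scipy 1.17.1 under Python 3.11.15. RPKM served for levels between genes. Loci are those of GENCODE M21 (mm10), and motif searches covered both strands.

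The members, the 14 gene lists (186 entries, of which 1 was not matched) and the rule were chosen with earlier results of these data known. All members were named. From each list up to 4 genes meeting the rule with at least 5 CPM were eligible, or 2 abundant ones where none met it, and any other scavenger receptor; other list genes were chosen after their values were seen. A few eligible genes are not reported here. Alternatives were DESeq2 1.42.0 size factors, library totals, RPKM, other thresholds and a macrophage scaling.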

Additional observations from a re-analysis of the deposited data

How the results depend on the processing

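The 6 higher members and the 1 lower member kept their calls with DESeq2 size factors, library totals, deposited RPKM + 0.01, a prior count of 3 and no filter on low counts. With library totals, however, the log2 ratios of 4 members left their counting intervals. These were Cd163 at 3.13, Mrc1 at 2.43, Stab1 at 1.86 and Cd36 at -2.19. The intervals therefore do not cover the choice of scaling. With a fold threshold of 2, Stab2 lost its call, and with a mean of at least 10 CPM, Stab2 and Olr1 did, since their means lie below it. The median log2 ratio of the members, 1.69, was 1.25 with no filter, which adds Marco. With ratios scaled to the macrophage identity median, an alternative chosen after the data were seen, it was 0.61, 3 members were lower and the log2 ratio of Stab2 was -0.27. Over all genes, 972 were higher and 595 lower at a fold of 2, and 1150 and 779 with at least 10 CPM, against 1972 and 1436. Over the list genes, 39 were higher at a fold of 2, against 61. Of the 14 list medians, 5 moved by more than 0.1 with at least 10 CPM, of which that for sinusoidal and lymphatic endothelium changed sign to -0.07, and none with the other alternatives run on them. No paired analysis was possible because each group held 1 library, and no library could be left out. Depth limits Marco, with 8 and 15 reads, and Stab2, with 113 and 71.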

Other observations

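The nearest protein-coding neighbours of the members averaging 1 CPM or more were looked up after the members' values were known, as values only. Stab1, with a ratio of 3.74, lies 2.3 kb from Nisch at 1.02 (0.994 to 1.04) and 10.1 kb from Smim4 at 0.991 (0.847 to 1.16). Cd163, at 9.02, lies 66.3 kb from Pex5 at 0.867 (0.822 to 0.915). Its neighbour on the other side, the lectin receptor Clec4e, is 1014.8 kb away at 4.57 (4.07 to 5.16). Mrc1, at 5.54, lies 79.8 kb from Stam at 0.975 (0.927 to 1.03) and 56.3 kb from Slc39a12, a zinc transporter at a low level, at 3.77 (2.77 to 5.30). Olr1, at 6.93, lies 26.0 kb from Gabarapl1 at 0.965 (0.928 to 1.004) and 33.2 kb from Clec1a, which was lower at 0.606 (0.505 to 0.722). Cd36, at 0.226, lies 51.4 kb from Sema3c at 0.896 (0.818 to 0.981), while Gnai1, 376.3 kb away on the other side, was lower at 0.265 (0.241 to 0.291). By the rule of size, met upwards by 14.1% of all genes considered, Clec4e and Slc39a12 were higher and the neighbours of Stab1 and Olr1 were not. These are too few genes to set against that share. The neighbours of Msr1, Marco, Stab2, Scarb1 and Scara5 are not listed here.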
